A study of Mus musculus with 2 samples.

Results

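Oxidative phosphorylation genes encode the respiratory chain and the ATP synthase, and they sit in both genomes of the cell. The genes described here were all rows of the count matrices whose identifier mapped to a symbol starting with Nduf, Sdha, Sdhb, Sdhc, Sdhd, Uqcr, Cox4, Cox5, Cox6, Cox7, Cox8 or Atp5 (the nuclear set), or mt-Nd, mt-Co, mt-Cytb or mt-Atp (the mitochondrial set). They numbered 111 of 32285 genes, of which 98 were nuclear and 13 mitochondrial. Cox8c, a nuclear member, had no UMI in the nuclei analysed. By complex, the nuclear set held 37 subunits and 8 assembly factors of complex I, 4 subunits and 4 assembly factors of complex II, 8 members of complex III, 20 of complex IV and 17 of complex V. It lay on 19 chromosomes.

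The data were single-nucleus RNA counts from amygdala, made with version 2 of the 10x kit that tags the 5′ end of transcripts. There were 2 libraries, 1 labelled wild type (WT) and 1 labelled Sema6d-/- (KO), both of C57BL6/J mice aged 6 to 8 weeks. Sema6d encodes a semaphorin, a transmembrane guidance protein. How many animals went into a library, and which part of Sema6d was deleted, the labels do not say. WT and KO below mean the libraries with those labels. Sema6d itself was at 637 counts per 1000000 UMIs (CPM) in WT and 689 in KO, and with the position of the deletion unknown here, these tags do not check the labels. With 1 library per genotype there was no test of any difference, and genotype, animal and library cannot be told apart. Intervals in brackets are 95% intervals for counting error only.

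Oxidative phosphorylation passes electrons from NADH through complex I, or from succinate through complex II, by way of ubiquinone, complex III and cytochrome c to complex IV, which reduces oxygen. The proton gradient built on the way drives complex V, the ATP synthase. Complex II is built from nuclear genes alone, while the other complexes join nuclear subunits to a core made inside the mitochondrion. Neurons draw most of their ATP from this pathway. Mitochondria lie outside the nucleus, so mitochondrial transcripts in a nucleus preparation are carried along with nuclei or held in free RNA.

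There were 11060 barcodes and 85124128 UMIs in WT, against 8666 barcodes and 60402979 UMIs in KO. Of the barcodes, 128 sequences occurred in both libraries. After filters, 10369 WT and 7911 KO nuclei remained, with median UMIs of 7196 and 6418. Nuclei were gated by marker genes, with 28.4% of WT and 24.6% of KO nuclei left ungated. The gates held 1177 WT and 833 KO excitatory-neuron-like nuclei, 4559 and 2750 inhibitory-neuron-like, 734 and 616 astrocyte-like, 586 and 1193 oligodendrocyte-like, 144 and 189 oligodendrocyte-precursor-like, and 155 and 281 microglia-like. Since the markers chose the nuclei, their presence is no check of the gates. Markers of other types were not absent: inhibitory markers summed to 533 and 682 CPM in astrocytes and 567 and 596 in microglia, beside 4453 and 5026 and 3647 and 5191 for each gate's own list. The gates are named excitatory, inhibitory, astrocyte, oligodendrocyte, precursor and microglia below. Fibroblast-like nuclei numbered 3 and 52, mural-like 41 and 29, and endothelial-like 22 and 20, too few to compare the libraries gene by gene.

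Some glial-gated nuclei also held UMIs of at least 7 of 8 general neuronal genes. In the microglia gate these were 36 WT and 37 KO nuclei with 61.1% and 58.8% of the gate's UMIs. In the oligodendrocyte gate they were 40 and 48 nuclei with 31.7% and 29.0% of UMIs, in the precursor gate 11 and 2 nuclei with 20.2% and 1.33%, and in the astrocyte gate 11 and 5 nuclei with 3.84% and 3.97%. Set ratios, set levels, calls and highest gates of the glia are therefore also given without these nuclei. Values of single genes and complexes, and counts of members by mitochondrial range, include them.

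The mitochondrial set made up a smaller share of the RNA of nuclei labelled KO in all 6 gates. As a ratio of medians the gap was widest in excitatory nuclei, and in percentage points in oligodendrocytes. Before any filter on mitochondrial content, the median nucleus of the excitatory gate had 0.565% of its UMIs from the 13 genes in WT and 0.190% in KO. The inhibitory gate had 0.679% and 0.317%. The glial gates stood higher in both libraries, with medians of 1.12% and 0.709% in astrocytes, 1.62% and 0.866% in oligodendrocytes, 0.906% and 0.516% in precursors, and 1.34% and 0.784% in microglia. The upper quartile of KO excitatory nuclei, 0.371%, lay below the WT median of that gate, and so did that of KO inhibitory nuclei, 0.619%. In astrocytes (1.25%) and microglia (1.46%) the KO upper quartile lay above the WT median, and in oligodendrocytes (1.53%) and precursors (0.819%) below it.

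**Figure D1:**
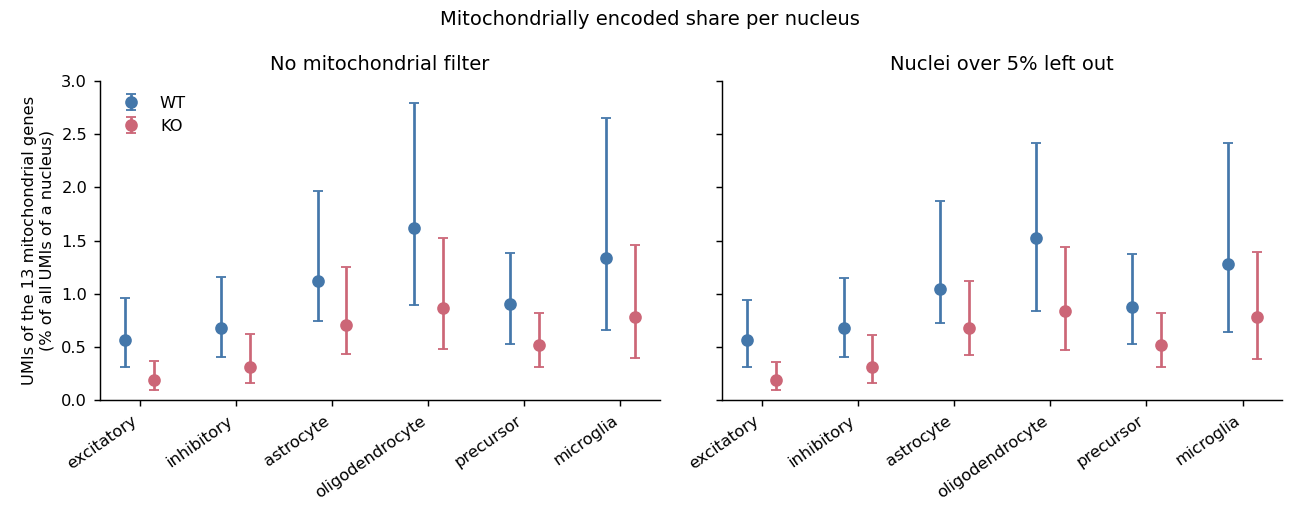
Median and interquartile range over nuclei (points and bars) of the percent of UMIs from the 13 mitochondrial genes, by gate and library, without a mitochondrial filter (left) and with nuclei over 5% left out (right). In both panels the KO median lies below the WT median in each gate, from 0.565% against 0.188% in filtered excitatory nuclei to 1.52% against 0.840% in oligodendrocytes.

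Leaving out nuclei with more than 5% mitochondrial UMIs removed 257 of 10626 WT nuclei (2.42%, exact binomial interval 2.13 to 2.73) and 390 of 8301 KO nuclei (4.70%, 4.25 to 5.18). Most of those KO nuclei, 298 of 390, were ungated. By gate the share removed was not always larger in KO: it was 6.84% in WT and 2.53% in KO oligodendrocytes, 8.28% and 1.40% in microglia, 0.437% and 0.362% in inhibitory nuclei, 3.80% and 4.79% in astrocytes, and 0.339% and 1.07% in excitatory nuclei. Over all nuclei the set stood at 8849 CPM in WT and 6109 in KO without the filter, and at 8306 and 4519 with it. Here and below, CPM is scaled to the UMIs that are not from mitochondrial genes.

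With the filter, the summed mitochondrial set was 6453 CPM in WT and 2541 in KO excitatory nuclei, a log2 ratio of KO to WT of -1.34 (-1.36 to -1.32), or 2.54-fold lower in the KO library. In inhibitory nuclei it was 8267 and 4315 CPM (-0.94, -0.95 to -0.93). The glial ratios were -0.66 in astrocytes (14457 and 9130 CPM), -0.62 in oligodendrocytes (13350 and 8697), -0.67 in precursors (11233 and 7052) and -0.75 in microglia (9981 and 5936). Without the filter the 6 ratios, in the same order, were -1.26, -0.93, -0.33, -0.71, -0.74 and -0.98. The filter thus moved the astrocyte value most, from -0.33 to -0.66. Without the neuron-like nuclei, and with the filter, the ratio was -0.63 in astrocytes, -0.60 in oligodendrocytes and -0.72 in the precursor gate, and -0.45 in microglia.

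A member was called when its CPM differed by at least 1.5-fold and it had at least 20 UMIs over both libraries in the gate. With the filter, all 13 mitochondrial members were called lower in KO in excitatory and in inhibitory nuclei, where 5.48% and 4.70% of the other genes tested were called lower. In astrocytes 11 were called lower (8.42% of other genes), in oligodendrocytes 8 (6.51%), in precursors 10 (10.7%) and in microglia 11 (8.99%). None was called higher in any of the 6 gates. Without the filter the counts of 13 called lower were 13, 13, 0, 11, 11 and 13, against 5.36%, 4.70%, 7.69%, 6.24%, 10.6% and 8.78% of other genes. With the filter but without neuron-like nuclei, 10 were called lower in astrocytes (9.14% of other genes), 8 in oligodendrocytes (8.71%), 11 in precursors (9.39%) and 2 in microglia (14.1%). With nuclei over 1% left out instead, the counts called lower were 13 in excitatory, 11 in inhibitory, 2 in astrocyte, 0 in oligodendrocyte, 0 in precursor and 8 in microglia nuclei. The share of other genes called is not given for that filter, which cuts on the very share that is compared and so limits the difference it can show. The 13 genes come from one pair of polycistronic transcripts, so they are not 13 separate observations.

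The core of complex I holds 7 mitochondrial subunits. mt-Nd1 was at 398 CPM in WT and 133 in KO in excitatory nuclei (log2 ratio -1.58, -1.66 to -1.49), and at 494 and 232 in inhibitory nuclei (-1.09). mt-Nd2 was at 449 and 160 CPM in excitatory and 586 and 290 in inhibitory nuclei. mt-Nd5 showed 215 and 89.0 CPM in excitatory and 290 and 145 in inhibitory nuclei. mt-Nd1, mt-Nd2 and mt-Nd5 belong to the membrane arm, and these 3 were lower in KO in all 6 gates. mt-Nd3 had the smallest difference of the complex I genes in inhibitory nuclei, with 67.9 CPM in WT and 40.8 in KO (-0.74). In oligodendrocytes it was at 94.3 and 77.7 CPM, with an interval that includes 0 (-0.28, -0.56 to 0.01).

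mt-Nd6 is the one protein gene of the light strand, transcribed apart from the other 12. It had few UMIs, 254 in WT and 61 in KO in excitatory nuclei, or 19.7 and 5.96 CPM (log2 ratio -1.72, -2.15 to -1.32). In inhibitory nuclei it was at 29.2 and 14.5 CPM (-1.01, -1.19 to -0.84), so the light strand gene differed between the libraries in the same direction as the heavy strand genes. In precursors it was the one mitochondrial member higher in KO, on 17 and 21 UMIs (0.21, -0.78 to 1.22).

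mt-Cytb, the catalytic cytochrome b of complex III, was at 914 CPM in WT and 358 in KO in excitatory nuclei (-1.35), and at 1152 and 601 in inhibitory nuclei (-0.94). mt-Co1, the catalytic subunit of complex IV, was at 1121 and 467 CPM in excitatory nuclei (-1.26) and at 1395 and 727 in inhibitory nuclei (-0.94). In astrocytes mt-Co1 was at 2645 and 1680 CPM and in oligodendrocytes at 2454 and 1598. mt-Co2, which takes electrons from cytochrome c, was at 809 and 318 CPM in excitatory nuclei, and mt-Co3, the third core subunit, at 1071 and 416. The log2 ratios of these 4 genes lay between -1.36 and -1.26 in excitatory and between -0.94 and -0.91 in inhibitory nuclei.

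Of the complex V genes, mt-Atp6 forms part of the proton channel and mt-Atp8 a small subunit beside it. mt-Atp6 was at 180 and 91.1 CPM in excitatory nuclei (log2 ratio -0.98, -1.10 to -0.87) and mt-Atp8 at 414 and 176 (-1.23, -1.31 to -1.16). mt-Atp6 had the smallest difference of the 13 in excitatory nuclei. In inhibitory nuclei mt-Atp8 was at 554 and 332 CPM (-0.74) and mt-Atp6 at 244 and 136 (-0.84). In unfiltered astrocytes mt-Atp8 was at 1079 and 1085 CPM and mt-Nd3 at 124 and 132. These were the 2 members not lower in KO there, and both intervals include 0.

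The largest members of the mitochondrial set held close shares of it in the libraries, although its total was not close. Ratios of single members were less alike, with log2 values from -1.72 to -0.98 in excitatory nuclei. mt-Co1 held 17.4% of the set's UMIs in WT and 18.4% in KO excitatory nuclei, and 16.9% and 16.9% in inhibitory nuclei. mt-Co3 held 16.6% and 16.4% in excitatory nuclei, mt-Cytb 14.2% and 14.1%, and mt-Co2 12.5% in both. In microglia mt-Co1 held 18.4% and 17.6%. mt-Atp8 departed most in astrocytes, with 6.13% and 7.39%. mt-Nd6 held between 0.235% and 0.353% in the excitatory, inhibitory, astrocyte, oligodendrocyte and microglia gates of both libraries.

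The gene pairs mt-Nd4l and mt-Nd4, and mt-Atp8 and mt-Atp6, overlap in the genome and each pair showed an uneven split of UMIs. mt-Nd4l took 9.02% and 8.41% of the set's UMIs in excitatory nuclei and mt-Nd4, with which it shares a transcript, 3.52% and 3.58%. mt-Atp8 took 6.41% and 6.93% and mt-Atp6, on the same transcript, 2.79% and 3.58%. The sources used here do not say how reads in the shared bases were assigned. The shared bases are shown because they are where the pairs cannot be separated. Capitals mark the 43 bases common to mt-Atp8 and mt-Atp6 and the 7 common to mt-Nd4l and mt-Nd4, with 30 bases on each side, on the plus strand of the mitochondrial chromosome (GENCODE vM21, mm10). The first stretch is chrM:7897-7999 and the second chrM:10137-10203, both coding sequence.
mt-Atp8/mt-Atp6: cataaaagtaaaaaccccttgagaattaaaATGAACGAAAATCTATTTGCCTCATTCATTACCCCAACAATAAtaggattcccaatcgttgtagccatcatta
mt-Nd4l/mt-Nd4: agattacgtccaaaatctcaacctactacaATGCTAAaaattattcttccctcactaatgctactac

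With the filter, nuclear members leaned slightly to the KO library in all gates but the astrocytes. In the excitatory gate 66 of 91 members with at least 20 UMIs were higher in the KO library and 25 lower, with a median log2 ratio of 0.15, beside a median of 0.03 over 15195 genes. In the inhibitory gate 58 of 93 were higher and 35 lower (median 0.08, beside 0.04). In oligodendrocytes 67 of 91 were higher (0.13, beside 0.01), in precursors 55 of 83 (0.18, beside 0.03) and in microglia 59 of 88 (0.14, beside 0.02). In astrocytes 44 were higher and 47 lower (-0.01, beside -0.03). Without the filter, astrocytes leaned to KO too, with 60 of 92 higher (0.05, beside -0.02), while microglia had 50 higher and 38 lower (0.05, beside 0.01). The other unfiltered medians were 0.16 in excitatory, 0.08 in inhibitory, 0.11 in oligodendrocyte and 0.18 in precursor nuclei. With the filter but without neuron-like nuclei the median was -0.01 in the astrocyte gate, 0.14 in oligodendrocytes, 0.12 in the precursor gate and 0.26 in microglia.

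**Figure D2:**
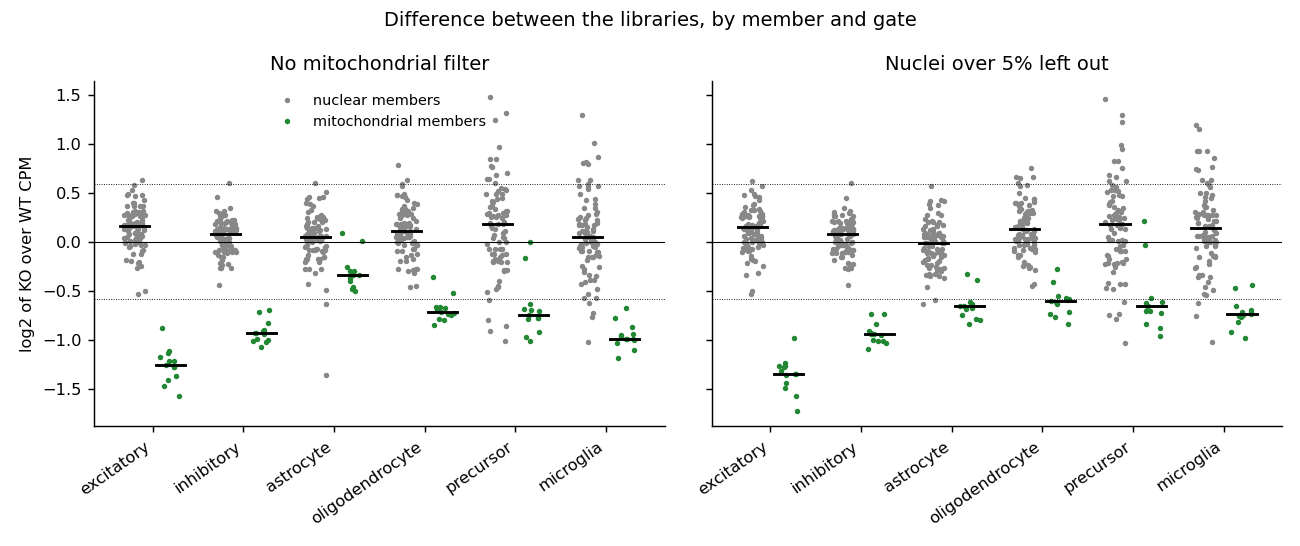
Log2 ratio of KO to WT CPM of each member with at least 20 UMIs (points, spread sideways for sight) by gate, nuclear members in grey and mitochondrial in green, with medians as bars and dotted lines at 1.5-fold. The mitochondrial members lie apart from the nuclear members in the excitatory and inhibitory gates (set ratios -1.34 and -0.94 with the filter), and the gap in astrocytes is smaller without the filter (-0.33) than with it (-0.66).

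Few nuclear members passed 1.5-fold. In the excitatory gate 1 was called higher and 0 lower, against 7.69% and 5.48% of all genes tested. In the inhibitory gate it was also 1 and 0 (7.24% and 4.70%). In astrocytes 0 were called higher (7.59% of genes) and 2 lower (8.42%), and in oligodendrocytes 5 higher (9.54%) and 0 lower (6.51%). In precursors 12 were called higher (12.7%) and 5 lower (10.7%), and in microglia 12 higher (12.8%) and 3 lower (8.99%). These shares are below the background in neurons and astrocytes, and in precursors and microglia those called higher are near it. Without the filter 1, 1, 1, 3, 13 and 9 members were called higher in the 6 gates, against 7.68%, 7.22%, 7.86%, 9.23%, 12.6% and 12.2% of genes. Those called lower were 0, 0, 2, 0, 5 and 4, against 5.36%, 4.70%, 7.69%, 6.24%, 10.6% and 8.78%. Without neuron-like nuclei 0 of 91 were called higher in astrocytes (7.70% of genes) and 7 of 91 in oligodendrocytes (9.59%). In precursors 15 of 83 were (12.1%) and in microglia 20 of 80 (17.2%). Of the same members, 1, 1, 10 and 4 were called lower (9.14%, 8.71%, 9.39% and 14.1%). Those called higher in precursors and microglia, and those called lower in precursors, were then a larger share than of all genes.

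By complex in the excitatory gate, complex V subunits leaned most to KO, with 16 of 17 measured members higher and a median log2 ratio of 0.26, at 656 summed CPM in WT and 765 in KO. In the inhibitory gate 15 of the 17 were higher (median 0.11, 912 and 991 CPM), and in oligodendrocytes also 15 (0.28, 1119 and 1314 CPM). Nuclear complex I subunits had 25 of 37 higher in excitatory (median 0.13) and 22 of 37 in inhibitory nuclei (0.08). All 7 nuclear core subunits of complex I, which carry its flavin and iron-sulphur clusters, were higher in excitatory nuclei (232 and 263 summed CPM), as were 6 of them in inhibitory nuclei (314 and 332). Their 7 mitochondrial partners in the same complex stood at 1944 and 715 CPM in excitatory and 2522 and 1247 in inhibitory nuclei.

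Complex II, the enzyme with no mitochondrially encoded subunit, had 3 of 4 subunits higher in both neuron gates, at 130 and 136 summed CPM in excitatory and 166 and 180 in inhibitory nuclei. Complex III members were split 6 to 2 in excitatory and 4 to 4 in inhibitory nuclei. Complex IV nuclear subunits were also near even, with 8 of 13 measured members higher in excitatory (564 and 575 summed CPM) and 8 of 15 in inhibitory nuclei (777 and 759). In astrocytes 3 of the 13 measured complex IV subunits were higher and 10 lower (1593 and 1479 CPM). In excitatory nuclei the summed nuclear subunits of complexes I, III and V were thus higher in KO and their mitochondrial partners lower. The nuclear complex IV difference there is no larger than the shift that TMM scaling makes.

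The highest ratio in both neuron gates, among nuclear members with at least 100 UMIs, was that of Atp5s, named as a coupling factor of ATP synthase. It was at 18.6 CPM in WT and 28.6 in KO excitatory nuclei (log2 ratio 0.62, 0.37 to 0.87), and at 18.7 and 28.3 in inhibitory nuclei (0.60, 0.44 to 0.75). It was the single nuclear member called higher in each neuron gate, and with TMM or median-of-ratios scaling it fell short of 1.5-fold in both. In astrocytes it was at 30.6 and 26.2 CPM, with an interval that includes 0 (-0.22, -0.80 to 0.35).

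Ndufb4, an accessory subunit of the membrane arm of complex I, was at 14.0 and 20.8 CPM in excitatory (0.57, 0.28 to 0.86) and 20.6 and 25.1 in inhibitory nuclei (0.28). Ndufaf6, an assembly factor of complex I, was at 20.1 and 28.9 CPM in excitatory nuclei (0.53, 0.28 to 0.77) and at 32.4 and 34.9 in inhibitory nuclei (0.11, -0.02 to 0.23). Ndufaf4, another assembly factor, was higher in both, at 30.5 and 42.7 CPM in excitatory (0.48, 0.28 to 0.68) and 44.8 and 56.7 in inhibitory nuclei (0.34, 0.24 to 0.44). Of the 8 complex I assembly factors in the set, 6 were higher in each neuron gate, with medians of 0.38 in excitatory and 0.06 in inhibitory nuclei. In astrocytes 2 of the 8 were higher (median -0.35).

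At the lower end stood Cox4i1, the common form of subunit 4 of cytochrome oxidase. It was at 92.2 and 72.8 CPM in excitatory (-0.34, -0.47 to -0.21) and 120 and 107 in inhibitory nuclei (-0.16, -0.22 to -0.09). In astrocytes it was at 274 and 216 CPM (-0.34, -0.53 to -0.15). Cox6a1, the common form of subunit 6a, was at 39.7 and 33.3 CPM in excitatory (-0.25, -0.45 to -0.05) and 53.7 and 44.5 in inhibitory nuclei (-0.27, -0.38 to -0.16). Both were lower in KO in each neuron gate, but neither reached 1.5-fold.

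Cox8a, the common form of subunit 8, was at 114 and 96.8 CPM in inhibitory nuclei (-0.23, -0.31 to -0.16) and at 84.2 and 80.6 in excitatory nuclei, where the interval includes 0 (-0.06, -0.19 to 0.07). Ndufs6, an accessory subunit of complex I that binds zinc, was at 9.77 and 6.74 CPM in excitatory nuclei (-0.53, -0.98 to -0.10), the lowest ratio there among members with at least 100 UMIs, and at 11.6 and 12.1 in inhibitory nuclei (0.07, -0.15 to 0.28). Uqcr11, a small subunit of complex III, was at 18.1 and 14.6 CPM in excitatory nuclei (-0.32, -0.62 to -0.01). Ndufa8, a complex I accessory subunit, was at 22.2 and 18.3 CPM in inhibitory nuclei (-0.27, -0.44 to -0.11) and at 16.4 and 15.8 in excitatory nuclei (-0.05). Ndufs6 and Ndufa8 thus stood at the low end of 1 neuron gate and not of the other.

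The most abundant members of complexes I, II, III and V differed by at most 0.14 on the log2 scale in the neuron gates. Ndufs4, an accessory subunit of complex I whose loss causes Leigh syndrome, was at 120 CPM in both libraries in inhibitory nuclei (-0.01, -0.07 to 0.06) and at 86.5 and 93.5 in excitatory nuclei (0.11). Sdha, the flavoprotein of complex II, was at 87.6 and 96.7 CPM in inhibitory nuclei (0.14, 0.07 to 0.22) and 68.2 and 71.2 in excitatory nuclei. Uqcrc2, a core protein of complex III, was at 55.3 and 56.5 CPM in inhibitory nuclei (0.03). Atp5b, the catalytic beta subunit of ATP synthase, was at 113 and 121 CPM in inhibitory nuclei (0.09, 0.03 to 0.16) and at 84.3 and 81.2 in excitatory nuclei (-0.05). Ndufs4 was lower in KO in precursors, at 142 and 81.9 CPM (-0.79, -1.32 to -0.27), and in oligodendrocytes, at 94.3 and 69.9 (-0.43, -0.72 to -0.14).

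In oligodendrocytes the members called higher were Ndufb5, Ndufc1, Ndufc2 and Ndufab1, of complex I, and Sdhb, the iron-sulphur subunit of complex II. These were 5 of 91, a smaller share than the 9.54% of all genes called higher there. Sdhb had 75 WT and 226 KO UMIs (log2 ratio 0.75, 0.37 to 1.15). It was also called higher in precursors, with 18 and 45 UMIs (1.23, 0.41 to 2.10), and in microglia, with 25 and 77 (0.92, 0.25 to 1.64). Of all genes, 12.7% were called higher in precursors and 12.8% in microglia. In oligodendrocytes without neuron-like nuclei Ndufc1 was not called (0.47, -0.02 to 0.99), while Atp5e, Uqcrq and Ndufb4 were called higher. Apart from Ndufb4, these genes are outside the rule for named genes and were chosen after their values were seen.

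Of the neuron and glial gates, excitatory nuclei had the lowest summed nuclear set and astrocytes the highest. The levels were 2762 CPM in WT and 3012 in KO excitatory nuclei, and 6161 and 6051 in astrocytes. Between them stood inhibitory nuclei at 3742 and 3893, precursors at 4205 and 4601, microglia at 4544 and 4942, and oligodendrocytes at 4799 and 5255. The counting intervals of microglia (4381 to 4711) and oligodendrocytes (4700 to 4900) overlapped in WT, while those of precursors (4042 to 4374) lay below both. In KO the 3 did not overlap. Of the neuron and glial gates, the mitochondrial set was also highest in astrocytes and lowest in excitatory nuclei in both libraries. The small mural, endothelial-like and fibroblast-like gates were above astrocytes in it, at 23255 and 17488.5, 25320 and 11087, and 29976 and 13207 CPM. Their nuclear set was at 8438 and 10703, 8769 and 6308, and 5653 and 6566 CPM. Without neuron-like nuclei, oligodendrocytes were at 5771 and 6302 CPM and microglia at 6413 and 7407, and microglia then stood above astrocytes (6213 and 6185), so the order of the glial gates rests on those nuclei. The mitochondrial set was then at 17578.5 and 11558.7 CPM in oligodendrocytes, 16630 and 12150 in microglia and 14525 and 9377 in astrocytes.

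**Figure D3:**
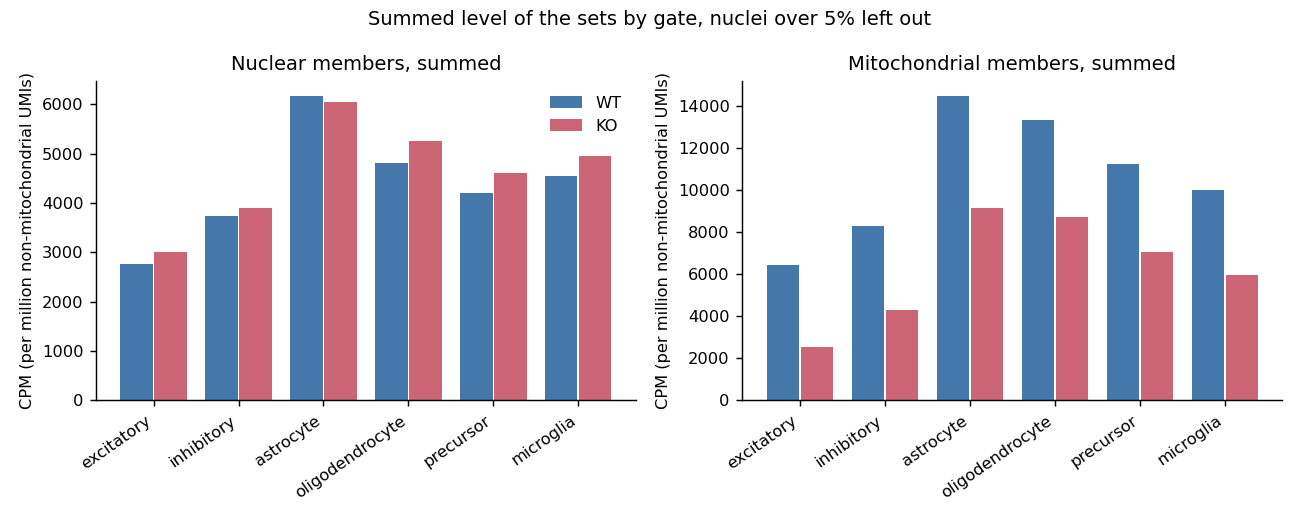
Summed CPM of the nuclear set (left) and the mitochondrial set (right) by gate in the WT and KO libraries, with nuclei over 5% left out. The nuclear bars of the libraries are close, such as 3742 and 3893 CPM in inhibitory nuclei, while the mitochondrial bars are apart, 8267 and 4315 CPM in the same nuclei.

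Which of the neuron and glial gates was highest for a member depended on the neuron-like nuclei. With them, astrocytes had the highest level of 71 of the 97 nuclear members with UMIs in WT and of 55 in KO, and microglia of 10 and 13. Without them, astrocytes were highest for 27 and 17, and microglia for 44 and 59. Of members with the same highest gate in both libraries, 28 then had microglia and 7 astrocytes. Cox5a, a matrix-side subunit of complex IV, was at 88.3 and 85.4 CPM in astrocytes, 50.9 and 55.4 in inhibitory and 37.7 and 42.2 in excitatory nuclei. Cox5b, its partner subunit, was at 121 and 100 CPM in astrocytes and 36.7 and 43.4 in excitatory nuclei. Ndufa4, a subunit now assigned to complex IV, was at 105 and 117 CPM in astrocytes, 87.9 and 108 in oligodendrocytes and 34.0 and 42.7 in excitatory nuclei. All 3 were higher in astrocytes than in the neuron gates of both libraries. By the mean of the libraries, the highest levels of Ndufa4, Cox5b and Cox6a1 over all 9 gates lay in small gates and rest on few UMIs, with Ndufa4 at 138 and 382 CPM in mural nuclei on 9 and 12 UMIs, Cox5b at 184 and 255 there on 12 and 8, and Cox6a1 at 514 and 136 in fibroblast-like nuclei on 3 and 18. The libraries did not share that order for Cox5b, at 202 CPM in WT endothelial-like nuclei, or for Cox6a1, at 223 in KO mural nuclei.

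Cox7b2 and Sdhaf3 had other patterns. Cox7b2, a paralog of subunit 7b, was at 8.45 and 6.22 CPM in inhibitory nuclei (log2 ratio -0.44, -0.73 to -0.16), 4.42 and 3.13 in excitatory nuclei and 7.28 and 2.28 in astrocytes, where KO had 4 UMIs. Precursors held 0 UMIs of it in both libraries. Sdhaf3, an assembly factor for the iron-sulphur subunit of complex II, was at 42.1 and 64.6 CPM in precursors, 33.9 and 31.2 in inhibitory nuclei and 31.5 and 31.3 in astrocytes. These genes span 105 and 87.0 kb, among the longest of the set, and the sources used here do not say whether intronic reads were counted.

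Alternative forms of complex IV subunits had few UMIs in both libraries. Cox4i2, the oxygen-sensitive form of subunit 4, had 7 and 8 UMIs in astrocytes and 5 and 3 in inhibitory nuclei, where Cox4i1 had 4620 and 2611. In mural nuclei, few as they were, Cox4i2 had 3 and 4 UMIs (46.1 and 127 CPM), beside 20 and 20 of Cox4i1. Ndufa4l2, the alternative form of Ndufa4, had 4 and 5 UMIs in mural nuclei (61.5 and 159 CPM) and 5 and 0 in inhibitory nuclei. Both alternative forms thus had about as many UMIs in the 41 and 29 mural nuclei as in the 4559 and 2750 inhibitory nuclei.

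Cox6a2, the heart and muscle form of subunit 6a, had 57 and 49 UMIs in inhibitory nuclei (1.48 and 2.02 CPM, log2 ratio 0.45, -0.13 to 1.03) and 5 and 7 in excitatory nuclei (0.388 and 0.684 CPM). Astrocytes held 2 and 7 UMIs of it (0.970 and 3.99 CPM), in a gate that also held inhibitory markers at 533 and 682 summed CPM, and these UMIs are not read as expression there. Cox6b2, known from testis, was at 8.25 and 7.97 CPM in astrocytes on 17 and 14 UMIs, and at 0.337 and 0.371 in inhibitory nuclei, with Cox6b1 at 88.8 and 83.2 in those astrocytes. Cox7a1 had 7 and 4 UMIs in inhibitory nuclei beside 1734 and 1192 of Cox7a2, and Cox8b 0 and 2 beside 4390 and 2351 of Cox8a.

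Within a gate, nuclei with a larger mitochondrial share of UMIs also had a larger share of their other UMIs from the nuclear set, in both libraries. These are shares, and amounts of RNA per nucleus were not compared. In WT inhibitory nuclei the nuclear set was at 3048 CPM in nuclei under 0.25% mitochondrial UMIs, 3476 at 0.25 to 1% and 4574 at 1 to 5%. The KO steps were 3348, 4113 and 5540. In excitatory nuclei they were 2136, 2702 and 3703 in WT and 2590, 3679 and 5949 in KO. In astrocytes WT held 5110 and 7093 CPM in the upper pair of ranges and KO 5568 and 7747. Depth moved with the ranges in neurons, from a median of 13338.5 UMIs under 0.25% to 8450 at 1 to 5% in WT excitatory nuclei. Between the same ranges it went from 10490 to 1693 in KO microglia and from 2762 to 1901 in KO oligodendrocytes, with neuron-like nuclei included. WT astrocytes had 2635 and 2773 in the upper pair of ranges. The part of depth in the result was not tested.

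**Figure D4:**
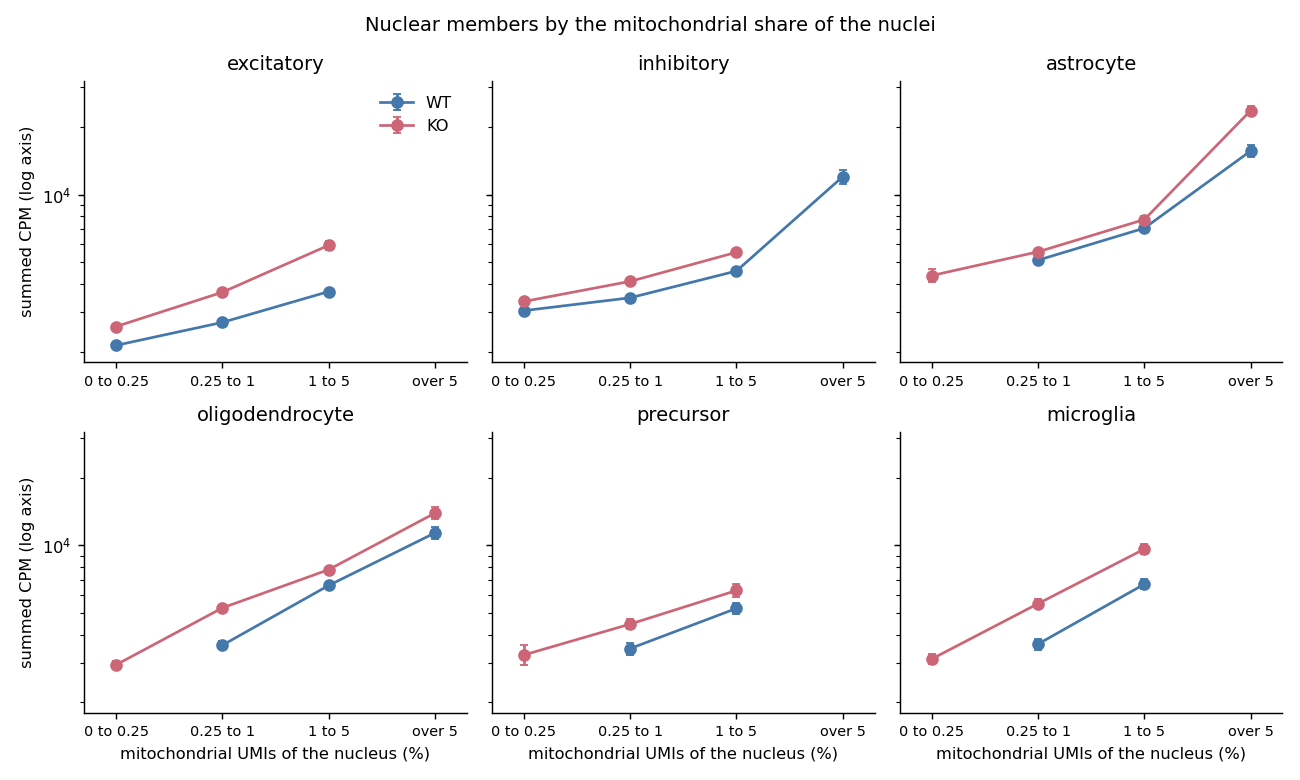
Summed CPM of the nuclear set (log axis) in nuclei split by their own mitochondrial share, by gate and library, with counting intervals, ranges with under 20 nuclei not drawn. The level climbs with mitochondrial share in each gate, and KO lies above WT wherever both are drawn, such as 4113 against 3476 CPM at 0.25 to 1% in the inhibitory gate.

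At a matched mitochondrial share the nuclear set was higher in the KO library. In the 14 combinations of gate and range up to 5% with at least 20 nuclei in each library, KO was above WT in all 14. The log2 ratios in excitatory nuclei were 0.28, 0.45 and 0.68 from the lowest to the highest range, against 0.12 without the split. In inhibitory nuclei they were 0.14, 0.24 and 0.28, against 0.06. In astrocytes they were 0.12 and 0.13, where the unsplit value was -0.03 (-0.06 to 0.01). Oligodendrocytes gave 0.55 and 0.23, precursors 0.36 and 0.26, and microglia 0.60 and 0.52. Without neuron-like nuclei the 8 glial values were still above 0, from 0.11 to 0.42, and the interval of microglia at 0.25 to 1% included 0 (0.12, -0.06 to 0.30). Fewer KO nuclei lay in the upper ranges (41 against 276 excitatory nuclei at 1 to 5%), so a given range is a different part of each library.

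Most members took part in this climb. Between nuclei at 0.25 to 1% and at 1 to 5%, 84 of 92 nuclear members in WT inhibitory nuclei were higher in the latter, and 20 by at least 1.5-fold, where 6.11% of all genes tested were. In KO 83 of 92 were higher, 24 past the fold (8.54%). In excitatory nuclei 29 of 91 passed in WT (11.4%) and 48 of 89 in KO (16.6%). In astrocytes 38 of 89 passed in WT (11.0%) and 31 of 86 in KO (14.3%), and in oligodendrocytes 59 of 87 (20.4%) and 39 of 90 (11.4%). In precursors 30 of 52 passed (14.4%) and 23 of 55 (14.6%), and in microglia 37 of 62 (30.9%) and 46 of 72 (21.9%). The members' share exceeded that of all genes in each gate and library.

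From nuclei under 0.25% to those at 1 to 5% in the inhibitory gate, 82 of 91 members measured in both libraries were higher in both, 3 were lower in both and 6 went opposite ways. Cox4i1 was at 58.9 CPM in the former and 189 in the latter in WT, and at 74.9 and 208 in KO. Cox8a went from 61.9 to 177 and from 59.9 to 222. Ndufa2, an accessory subunit of the matrix arm of complex I, went from 8.95 to 24.6 and from 14.9 to 39.3. Cox4i1, Cox6a1 and Cox8a, lower in the KO library over all inhibitory nuclei, were among the 6 members with the largest change with mitochondrial share in each library. Ndufa2 and the assembly factors named next were chosen after their values were seen.

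Ndufs4 barely moved, with 116 and 124 CPM in WT (121 and 124 in KO). The 3 members lower in both libraries were assembly factors of complex I: Ndufaf5 (67.6 to 55.1 CPM in WT, 55.6 to 44.6 in KO), Ndufaf2 (58.4 to 48.2 and 54.3 to 48.5) and Ndufaf1 (14.7 to 14.6 and 12.7 to 10.9). Atp5s, the member highest in KO, stood at 20.9 and 18.4 CPM in WT, and at 28.0 and 35.4 in KO, with intervals that include 0. Ndufaf2 spans 156 kb and Ndufs4 100 kb, while Cox8a spans 2.46 kb and Cox4i1 5.99 kb.

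Over members, the change with mitochondrial share was smaller the longer the gene. In WT inhibitory nuclei Pearson's r with the log10 of the gene's annotated span was -0.66 and Spearman's rho -0.64 over 91 genes, and in KO -0.43 and -0.54 over 92. These points are genes of the same nuclei and libraries, so they are not independent and no p is given. The 4 members of 50 kb or more (Cox7b2, Sdhaf3, Ndufaf2 and Ndufs4) had a median log2 change of -0.15 in WT and 0.05 in KO, and the shorter ones of 0.63 and 0.77. In excitatory nuclei r was -0.66 in WT and -0.54 in KO. The part of unspliced RNA in this relation was not tested.

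**Figure D5:**
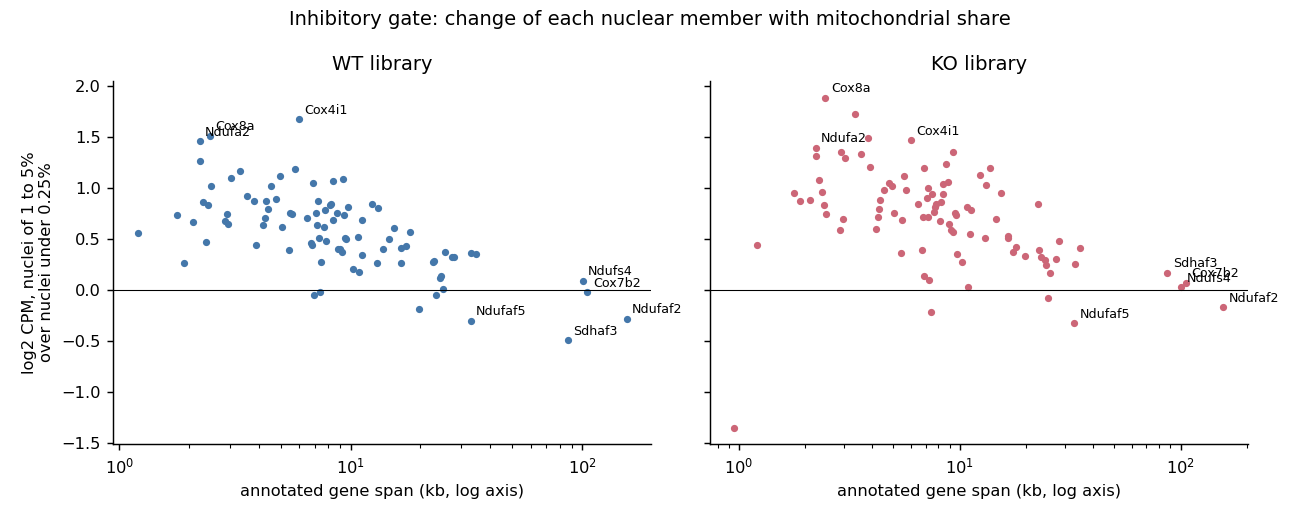
Log2 change of CPM of each nuclear member from inhibitory nuclei under 0.25% to those at 1 to 5% mitochondrial UMIs, against the annotated span of the gene (log axis), WT left and KO right. Short genes such as Cox8a and Cox4i1 lie high and the genes of 50 kb or more near 0 (r = -0.66 in WT, -0.43 in KO), and the low point at the left of the KO panel is Cox6a2.

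The nuclei over 5% mitochondrial UMIs that the filter removes were set apart in the nuclear set as well. They had median UMIs of 1883 in WT and 1964 in KO, against 7196 and 6418 for the rest. Their nuclear set stood at 16029 CPM in WT and 27787 in KO, against 3689 and 3940. Of nuclear members with at least 20 UMIs in them, 73 of 75 were higher than in the rest in WT and 80 of 85 in KO, with median log2 differences of 2.19 and 2.86, beside 0.31 and 0.51 over all genes measured. That minimum was applied to these nuclei alone, for members and for all genes. Members with fewer UMIs in them were left out whatever their level in the rest, which tilts the counts and medians upward. The summed levels have no such minimum.

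These nuclei were 0.683% of the WT and 1.39% of the KO library's UMIs but held 6.72% and 26.9% of its mitochondrial UMIs. Of these nuclei, 135 of 257 in WT (52.5%) and 298 of 390 in KO (76.4%) were ungated. Their astrocyte markers summed to 1250 and 1161 CPM (197 and 250 in the rest), oligodendrocyte markers to 1816 and 1118 (274 and 579), inhibitory markers to 873 and 952 (750 and 781) and excitatory markers to 395 and 610 (442 and 471). Markers of several types were thus present among them. What these barcodes are was not tested.

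Some lists of pathway genes outside the set leaned to KO in neurons. Beside them, the median log2 ratio over all genes was 0.03 in excitatory and 0.04 in inhibitory nuclei. The genes named below were chosen after their values were seen. Of 10 other subunits and electron carrier genes, 7 were higher in KO excitatory and 9 in KO inhibitory nuclei, with medians of 0.27 and 0.19, and 1 and 0 were called higher, where 7.69% and 7.24% of all genes were. Cyc1, the cytochrome c1 of complex III, was the one called, at 30.2 and 46.2 CPM in excitatory nuclei (0.62, 0.42 to 0.81), and it was at 43.0 and 60.4 in inhibitory nuclei (0.49, 0.39 to 0.59). Cycs, the mobile cytochrome c that it passes electrons to, was at 10.5 and 9.77 CPM in excitatory and 14.0 and 14.7 in inhibitory nuclei, with intervals that include 0. Coq2, an enzyme of ubiquinone synthesis, was at 52.9 and 64.6 CPM in excitatory (0.29) and 60.5 and 77.1 in inhibitory nuclei (0.35).

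Of 30 further assembly factors, 18 were higher in excitatory and 21 in inhibitory nuclei (medians 0.06 and 0.04, near those of all genes). Foxred1, needed for complex I assembly, was at 19.9 and 29.5 CPM in excitatory (0.57, 0.32 to 0.81) and 28.2 and 33.6 in inhibitory nuclei (0.25). Sco2, a copper chaperone of complex IV, was at 3.11 and 4.78 CPM in inhibitory nuclei (0.62, with a lower bound of 0.24). It was the 1 of 30 called higher there, where 7.24% of all genes were.

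The 15 genes of mitochondrial transcription, genome upkeep and biogenesis leaned the other way, with 5 higher and 10 lower in each neuron gate (medians -0.12 in excitatory and -0.06 in inhibitory nuclei). Tfam, which packages and activates the mitochondrial genome, was at 9.53 and 8.70 CPM in excitatory and 11.2 and 10.7 in inhibitory nuclei, with intervals that include 0. Polrmt, the mitochondrial RNA polymerase, was at 11.2 and 14.9 CPM (0.41, 0.07 to 0.75) and 12.05 and 14.7 (0.28, 0.08 to 0.49). Ppargc1b, a coactivator of mitochondrial genes, was at 62.6 and 53.3 CPM (-0.23, -0.39 to -0.07) and 104 and 81.6 (-0.35, -0.43 to -0.27), while its relative Ppargc1a was at 64.7 and 71.0 and at 85.7 and 88.3. In excitatory nuclei Mterf1a, a termination factor family member, was called higher (48 and 62 UMIs) and Polg2, the accessory subunit of the mitochondrial DNA polymerase, lower (30 and 10 UMIs). These were 1 of 15 each way, where 7.69% of all genes were called higher and 5.48% lower.

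Glycolysis genes, which feed the pathway, had 11 of 16 higher in excitatory (median 0.11) and 13 of 16 in inhibitory nuclei (0.14), and 0 were called in either, again beside 7.69% and 7.24% of all genes called higher. Ldhb, a lactate dehydrogenase subunit, was at 77.7 and 91.4 CPM in inhibitory nuclei (0.23, 0.16 to 0.31), and Pkm, pyruvate kinase, at 108 and 123 (0.19). Of 15 citric acid cycle genes, 11 were higher in each neuron gate (0.08 and 0.06). Suclg1, a subunit of succinyl-CoA ligase, was called lower in excitatory nuclei, at 34.5 and 22.8 CPM (-0.60, -0.83 to -0.37), and was at 39.4 and 31.7 in inhibitory nuclei (-0.32, -0.44 to -0.19). It was the 1 of 15 called lower in excitatory nuclei, where 5.48% of all genes were.

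The same lists varied with mitochondrial share in the inhibitory gate to different degrees. Glycolysis genes summed to 1154 CPM in WT nuclei under 0.25% and 1515 at 1 to 5% (1261 and 2036 in KO). Mitochondrial transcription and biogenesis genes stood at 539 and 529 CPM in those WT nuclei (524 and 499 in KO), and assembly factors at 935 and 963 (958 and 1024). The nuclear oxidative phosphorylation set, from 3048 to 4574 and from 3348 to 5540, varied by a larger ratio than any of the 5 lists, with glycolysis close to it in KO.

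Promoters of the nuclear set were searched for short motifs, whose part in the values above was not tested. RefSeq start sites (GRCm38.p6) gave a window from 250 bases before to 50 after the start for 81 of the 98 members. NRF1, a factor long known for respiratory genes, has a palindromic GC-rich motif, which either strand held in 21 of 81 windows (25.9%), against 5.19% of 27025 genes. The motif CCGGAAG of the ETS family, to which the factor Gabpa belongs, was in 25.9% (9.93% of all), AAGATGGC of YY1 in 13.6% (3.19%) and TATAAA in 9.88% (15.7%). None of these motifs is contained in another.

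Members with the NRF1 motif had a median KO to WT log2 ratio of 0.11 in inhibitory nuclei (21 genes) and those without it 0.07 (58 genes). For the ETS motif the medians were 0.00 (21 genes) and 0.11 (58 genes). A match to the letters is not evidence that the factor binds. The 70-base stretches below belong to Ndufaf4 and Ndufb4, higher in the KO library in both neuron gates, to Cox6a1, lower in both, and to Sdha, with a match in capitals, printed on the gene's strand. GCGCAGGCGC is the motif as found on the opposite strand. Ndufb4, Cox6a1 and Sdha each hold 2 matches, of which 1 is shown.
Ndufaf4, chr4:24897940-24898009, plus strand, motif 103 bases before the start: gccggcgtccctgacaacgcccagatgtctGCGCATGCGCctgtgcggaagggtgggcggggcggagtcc
Ndufb4, chr16:37654408-37654477, minus strand, motif 69 bases before the start: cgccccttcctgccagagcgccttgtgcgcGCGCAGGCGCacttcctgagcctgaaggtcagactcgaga
Cox6a1, chr5:115349036-115349105, minus strand, motif 107 bases before the start: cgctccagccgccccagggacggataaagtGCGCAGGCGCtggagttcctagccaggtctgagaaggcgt
Sdha, chr13:74350299-74350368, minus strand, motif 88 bases before the start: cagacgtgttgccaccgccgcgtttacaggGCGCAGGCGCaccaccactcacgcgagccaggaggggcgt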

How the data were processed

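The deposited matrices hold raw UMI counts per Ensembl gene and barcode, made by the authors with Cell Ranger 6.0.0 on mm10, per the submitters' processing notes. The annotation, the treatment of introns and of reads shared with nuclear copies of mitochondrial genes or with processed pseudogenes, and the calling of nuclei are not stated in any source used here. Symbols were matched by identifier for 32158 genes (127 unmatched). Barcodes with under 500 genes were left out (12 WT, 143 KO), as were doublets called by Scrublet (scanpy 1.11.5, expected rate 0.8% per 1000 nuclei; 422 and 222, run on nuclei of at most 5% mitochondrial UMIs) and, unless stated, nuclei over 5% mitochondrial UMIs. A nucleus was gated by UMIs of at least 2 of 8 markers of a type and a lead of 2 over other types. A split of inhibitory nuclei by striatal markers was not used, since 57.2% of WT and 49.2% of KO excitatory nuclei also met it. In the inhibitory gate 82.9% of WT and 73.6% of KO nuclei met it. Whether the makeup of the neuron gates differed between the libraries was not tested. UMIs were summed per gate and library and scaled to CPM on non-mitochondrial UMIs, with no test, since each genotype has 1 library. Intervals are 95% exact Poisson for levels and exact conditional binomial for ratios, and cover counting error only. Medians and calls use members with at least 20 UMIs over both libraries, and a gene with 0 in 1 library enters at a floor of 3 counts in that library. Scripts were tested on simulated data (Python 3.11.15, numpy 2.4.6, scipy 1.17.1). Positions and spans are from GENCODE vM21, and promoter sequences from RefSeq.

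Members, lists and named genes were chosen with earlier results of these data known. Named were each mitochondrial member, the 3 highest and 3 lowest nuclear ratios in each neuron gate among members with at least 100 UMIs, the member with most UMIs of each complex, the 6 with the largest ratio of the highest to the next gate, and pairs of common and alternative forms. The 8 neuronal genes used to find neuron-like nuclei in glial gates were chosen after seeing the data. Alternatives were other filters, gates, scalings (edgeR 4.0.16 for TMM factors only), thinning to 1000 UMIs and UMI minimums.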

Additional observations from a re-analysis of the deposited data

How the results depend on the processing

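The summed mitochondrial ratio of KO to WT was below 0 in all 6 gates under each setting run, and its size moved with the filter and the gate. Without the mitochondrial filter it was -1.26 in excitatory, -0.93 in inhibitory, -0.33 in astrocyte, -0.71 in oligodendrocyte, -0.74 in precursor and -0.98 in microglia nuclei. With a 1% filter the first 5 were -1.05, -0.70, -0.32, -0.35 and -0.22. A gate with no marker of another type gave -1.21, -0.86, -0.55, -0.45, -0.32 and -1.06, and thinning to 1000 UMIs -1.25, -0.86, -0.63, -0.66, -0.76 and -0.53. A gate of 3 markers with a lead of 3 gave -1.39 in excitatory, -0.99 in inhibitory, -0.68 in oligodendrocyte and -0.89 in microglia nuclei. TMM scaling gave -1.39 and -0.99 in the neuron gates, and median-of-ratios scaling -1.39 and -0.996. With doublets kept, inhibitory, precursor and microglia nuclei were at -0.92, -0.59 and -0.62. Without neuron-like nuclei, astrocytes were at -0.63 and microglia at -0.45.

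The nuclear median moved under the 1% filter, to 0.22 in excitatory, 0.12 in inhibitory, 0.086 in astrocyte, 0.41 in oligodendrocyte and 0.40 in precursor nuclei. With no marker of another type it was 0.22 in excitatory and -0.0015 in oligodendrocyte nuclei, and could not be computed for precursors and microglia. Precursors were at -0.013 when thinned and 0.0085 with a minimum of 100 UMIs, and microglia at 0.26 without neuron-like nuclei. The count of members past 1.5-fold took nuclear and mitochondrial members together, in either direction. It was 14, 14, 13, 13, 27 and 26 in the 6 gates. With no marker of another type it became 29 in excitatory, 8 in oligodendrocyte, 1 in precursor and 10 in microglia nuclei. In precursors and microglia no nuclear member was then measured, so those counts are of mitochondrial members. Thinning gave 29, 23 and 15 in excitatory, oligodendrocyte and precursor nuclei, no filter 3 in astrocytes, the 1% filter 26 in oligodendrocytes, and a minimum of 100 UMIs 11 in precursors and 12 in microglia. For the other gates, thinning, the 1% filter and the other UMI minimum, the share of all genes called is not given. These counts thus have no background beside them. Under the 1% filter the mitochondrial calls lower in KO ended in oligodendrocytes (0, from 8) and precursors (0, from 10), where 1 member each was called higher, and numbered 2 (from 11) in astrocytes, 8 (from 11) in microglia and 11 (from 13) in inhibitory nuclei. The 1% filter cuts on the share that is compared. Among nuclei within 5%, the WT median was above that cut in oligodendrocytes (1.52%), astrocytes (1.05%) and microglia (1.28%). The KO median was below it (0.840%, 0.682% and 0.780%). A smaller difference is thus built into the filter in these gates, and what else moved the calls was not tested. TMM moved the median of all genes to -0.02 in excitatory nuclei (0.03 otherwise) and -0.01 in inhibitory nuclei (0.04 otherwise), so small directions rest on the scaling. No paired analysis was possible because each genotype has 1 library.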
